A study of Mus musculus with 7 samples.

Results

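The genes described here are 10 that mark lipid-associated macrophages, a state known from fatty tissue and tumours and often named after its receptor Trem2. They are Trem2, Gpnmb, Spp1, Cd9, Cd36, Lpl, Fabp4, Fabp5, Lgals3 and Pparg, and they are 10 of the 53379 genes in the deposited count table. They were chosen by name, with earlier results of these data known. Macrophages were sorted by CD45, CD11b and F4/80 from tumours of MC38, a mouse colon carcinoma line, at day 21 after implantation, and each library came from its own mouse. All 7 mice were C57BL/6J animals on a high-fat diet, and 4 were wild-type for Gpr65, a receptor that senses extracellular acidity, while 3 were Gpr65 knockout. The allele, the cells in which it acts and the age of the mice are not given in the sources used here. No mice on another diet were included, so the values describe the genotype within a high-fat diet.

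Lipid-associated macrophages take up fatty acids, lipoproteins and dying cells, store the lipid in droplets and break it down in lysosomes. Trem2 is a surface receptor for lipids and lipoproteins that signals through the adaptor Tyrobp, and in fat tissue of obese mice it is needed for this state. Cd36 imports fatty acids, Lpl frees them from triglyceride, Fabp4 and Fabp5 carry them inside the cell, and Pparg is the nuclear receptor that fatty acids activate. Gpnmb, Cd9, Lgals3 and Spp1 mark the same cells at the membrane, in lysosomes and as secreted protein.

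Gpr65 measured 93.4, 112, 92.6 and 65.2 CPM (read counts relative to library size, scaled between libraries by TMM) in the wild-type animals 1 to 4, against 0.683, 0.976 and 1.10 CPM in the knockouts 1 to 3. Library totals lay between 22449772 and 30483733 counts, and knockout 1 stood apart with 940 of the 16234 tested genes at 0, against 51 to 281 in the others. The macrophage and sort markers, which include Ptprc (CD45), Itgam (CD11b) and Adgre1 (F4/80), summed to between 15257 and 25088 CPM, and all 10 had counts. Over all genes, 6 of 16234 passed an adjusted p of 0.05 in edgeR's quasi-likelihood test, which is 0.037%.

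None of the 10 genes was among them. Of the 9 members that could be tested, 7 had a negative and 2 a positive log2 fold change (knockout minus wild-type), with a median of -0.51 against -0.0016 over all tested genes. With each mouse left out in turn this median ranged from -0.76, without knockout 1, to -0.34, without wild-type 2. Without adjustment, Pparg passed p of 0.05 as higher in knockout macrophages, where 2.57% of all genes did, and Gpnmb and Fabp5 passed as lower, where 2.79% did. The knockout and wild-type mice did not overlap for Pparg, which was higher in each knockout mouse (2.8% of all genes), or for Gpnmb, which was lower (3.33%). DESeq2 called 0.691% and limma voom 0.0616% of all genes, and neither called a member. Fewer cells of a type and less RNA per cell cannot be told apart in such bulk libraries.

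**Figure D1:**
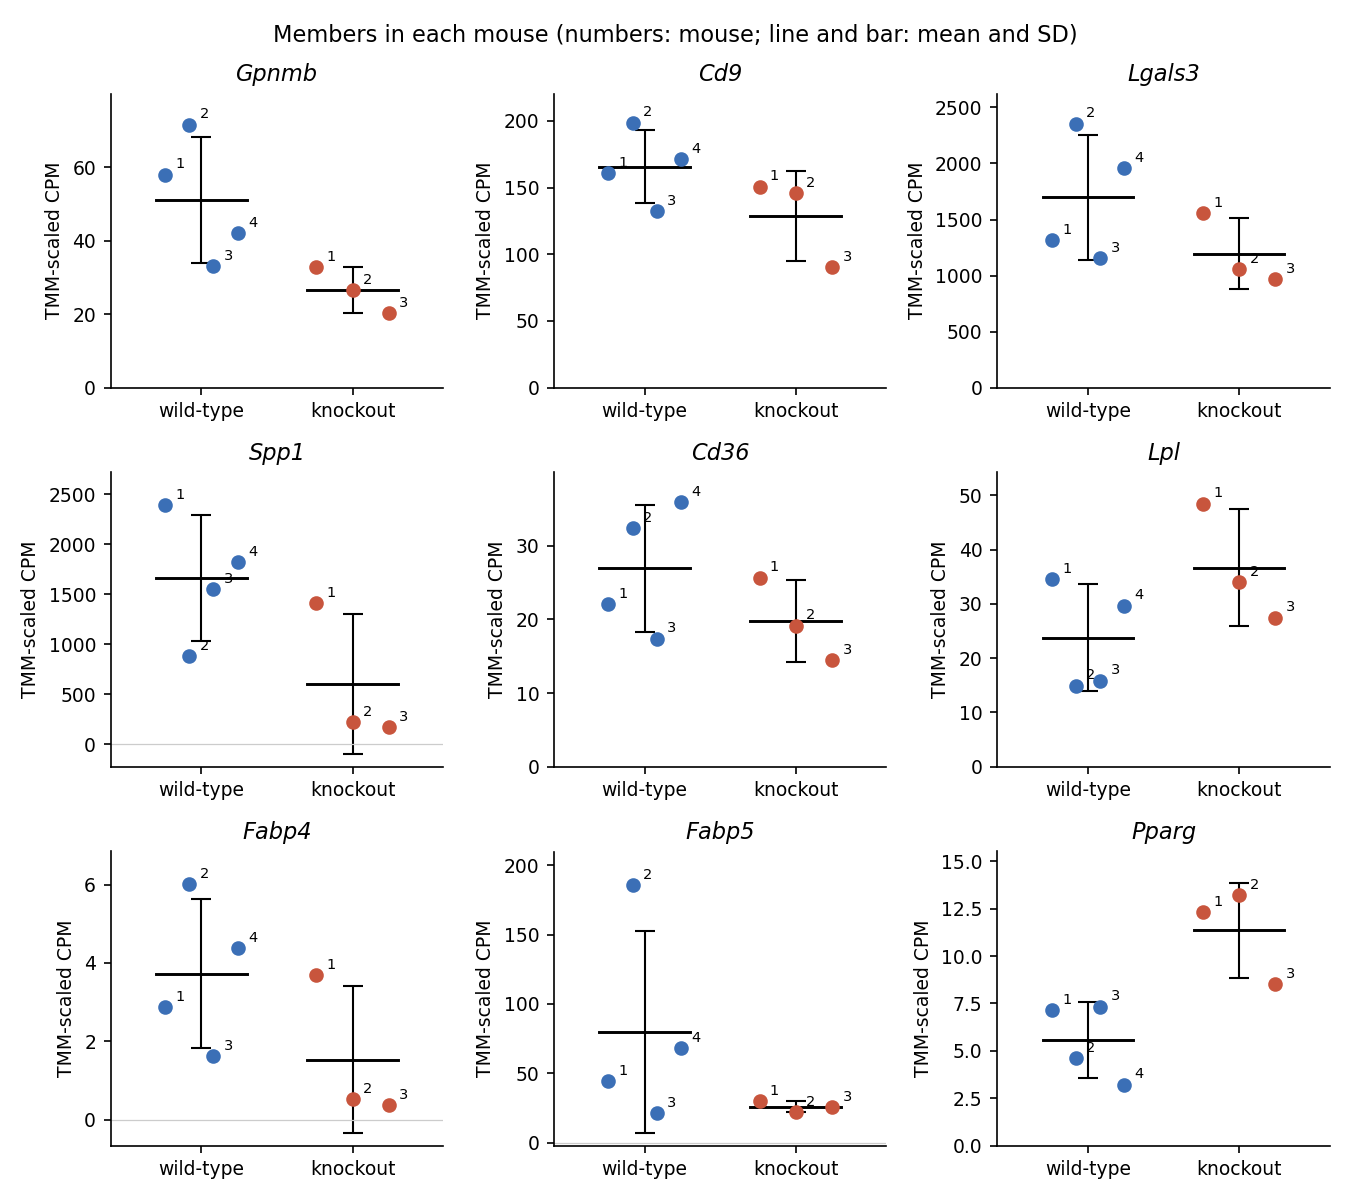
TMM-scaled CPM of the 9 members with counts, 1 panel per gene, with wild-type mice in blue and knockout mice in red, numbered by mouse; the line is the mean and the bar the SD (n = 4 and n = 3), which for Spp1 and Fabp4 reaches below 0. All 3 knockout mice lie above the 4 wild-type mice for Pparg and below them, by a narrow margin, for Gpnmb.

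RefSeq promoter windows of GRCm38.p6, from 250 bases before to 50 bases after a RefSeq start, matched 7 of the 10 members and gave 10 windows. Stretches are shown for the 4 genes that held 1 of the motifs searched on both strands, because the motifs are of factor families known in macrophages. The motif AGGTCA, the core that nuclear receptors such as Pparg bind, was in 4 of the 10 windows and in 16.3% of 32851 promoter windows. TGANTCA, a loose form of the AP-1 site in which N is any base, was in 2 of 10 and in 7.81%. The AP-1 site itself has C or G at N, and N was C in Gpnmb but A in Trem2. The motif is in capitals, and positions count from the RefSeq start of each window as 1 with no 0. That start is the annotated gene start for Trem2 only, and for the others it is another start, 17835896 for Cd36 (inside the gene), 49036518 for Gpnmb, and 115361144 and 115362349 for Pparg. Read 5′ to 3′ along the gene, they are:
Pparg, chr6:115361092-115361143, plus strand, AGGTCA at -28 to -23: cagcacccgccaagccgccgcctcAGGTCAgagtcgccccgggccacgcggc
Pparg, second start, chr6:115362316-115362348, plus strand, AGGTCA at -9 to -4: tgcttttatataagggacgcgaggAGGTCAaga
Cd36, chr5:17836095-17836146, minus strand, AGGTCA on the opposite strand at -228 to -223: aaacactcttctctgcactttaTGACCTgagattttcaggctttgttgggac
Trem2, chr17:48346309-48346362, plus strand, AGGTCA on the opposite strand at -68 to -63: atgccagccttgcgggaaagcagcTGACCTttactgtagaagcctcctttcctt
Trem2, chr17:48346368-48346400, plus strand, TGANTCA at -9 to -3: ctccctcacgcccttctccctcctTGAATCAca
Gpnmb, chr6:49036503-49036532, plus strand, TGANTCA at 9 to 15: aataaatagatgccaggggcaagTGACTCA
The full Pparg and Rxr site, 2 copies of AGGTCA with 1 base between, was in 0 of the 10 windows and in 0.0396% of all windows, and the E-box CACGTG of the Mitf family was in 0 of 10 and in 7.15%. A match of this kind is a run of letters and not a bound site.

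Trem2 (ENSMUSG00000023992, chromosome 17, 48346401 to 48354147, plus strand, GRCm38) is listed at 0 counts in all 7 libraries. The listing is not particular to Trem2, because 17 consecutive protein-coding genes from 48036745 to 49097588, a span of 1061 kb, are all listed at 0 in all libraries. They include its relatives Trem1, Trem3, Treml1, Treml2 and Treml4. They also include Nfya, a subunit of the general transcription factor NF-Y that most cells use. The nearest protein-coding genes outside the run, Foxp4 and Mocs1, had 1237 and 3926 counts over the 7 libraries. Within 2000 kb on each side, 40 of the 49 protein-coding genes outside the run had counts, with a median of 1782 over the 49. Among all genes deposited, 5387 of 21865 protein-coding genes (24.6%) were at 0 in all libraries. Runs of consecutive protein-coding genes at 0 that were at least as long numbered 29, the run of Trem2 included. No exon of Trem2 overlaps another gene, and 0% of its 50-base words occur in another gene's transcripts. The zeros are therefore given as listed and not as a level of Trem2, and no comparison of Trem2 between genotypes was made. Why the run is at 0 was not tested.

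**Figure D2:**
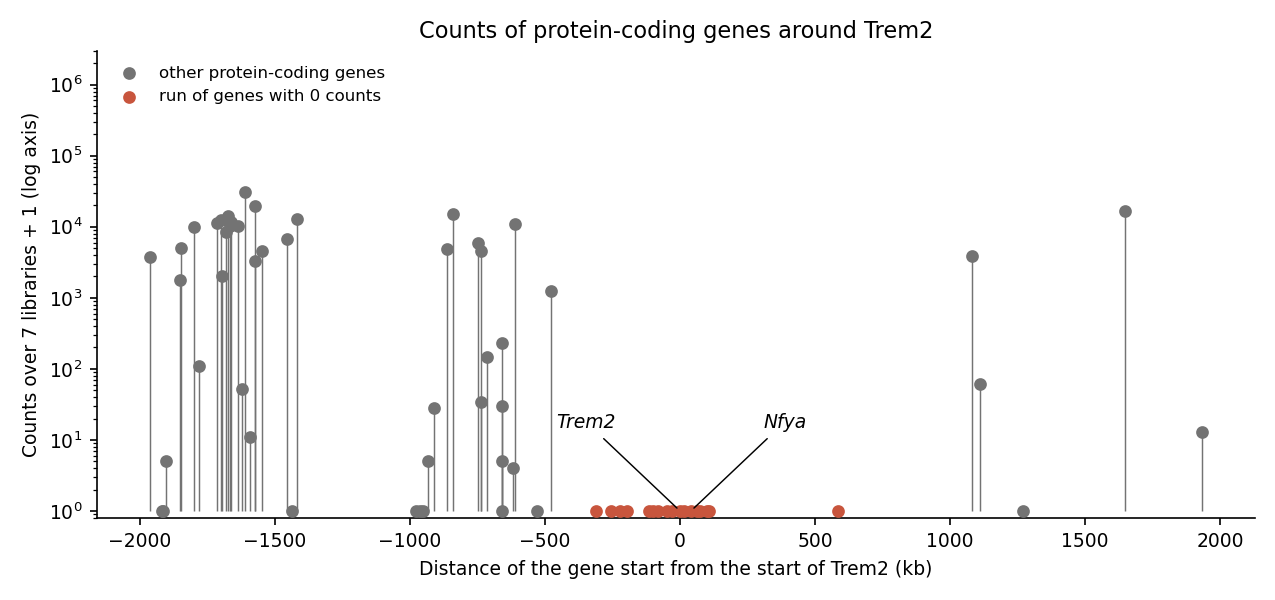
Counts summed over the 7 libraries (plus 1, log axis) for protein-coding genes within 2000 kb of Trem2, by the distance of each gene's start from that of Trem2 in kb. The 17 genes of the run around Trem2, in red, are all at 0 counts, while 40 of the 49 other genes, in grey, have counts.

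The signalling partners of Trem2 lie elsewhere and were measured. Tyrobp, the adaptor that carries the signal, measured 1079, 1391, 905 and 1011 CPM in the wild-type animals 1 to 4, against 923, 1350 and 847 CPM in the knockouts 1 to 3. The 2 groups covered the same range, with 1097 ± 209 CPM (SD, n = 4) and 1040 ± 271 CPM (SD, n = 3). Its difference on the log2 scale was -0.08 (SE 0.23, adjusted p = 1.00 by edgeR). Of the 16 genes of the Trem family and its signalling chain, 11 were tested and 0 were called. Among the tested genes 8 had a negative and 3 a positive value, with a median of -0.08. Vav3, a guanine nucleotide exchange factor, measured 38.5 ± 6.10 against 28.9 ± 4.21 CPM. Each knockout mouse was below each wild-type mouse, but knockout 2 (32.6 CPM) and wild-type 2 (32.9 CPM) were nearly level. Vav1, a relative of Vav3, measured 278 ± 66.6 against 383 ± 107 CPM. Neither passed edgeR's test, with adjusted p of 0.933 for Vav3 and 0.997 for Vav1.

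Gpnmb (ENSMUSG00000029816, chromosome 6, 49036546 to 49070929, plus strand), a membrane glycoprotein of lysosomes and a target of the Mitf family, measured 57.9, 71.5, 32.9 and 41.9 CPM in wild-type mice 1 to 4. In knockout mice 1 to 3 it measured 32.7, 26.4 and 20.2 CPM. Each knockout mouse was below each wild-type mouse, but knockout 1 and wild-type 3 were nearly level, and the separation was lost with upper quartile scaling or with library size alone. The means were 51.1 ± 17.1 CPM (SD, n = 4) and 26.5 ± 6.27 CPM (SD, n = 3), a log2 fold change of -0.95 (SE 0.29, edgeR adjusted p = 0.776).

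The Mitf family and other genes of the lysosome and of fusing macrophages gave 12 tested genes and 0 calls, with 5 positive and 7 negative values and a median of -0.34. Mitf itself measured 22.1 ± 5.72 CPM in wild-type animals, against 22.5 ± 3.14 CPM in knockouts. Tfec, the family member most restricted to macrophages, measured 9.32, 65.7, 7.47 and 43.1 CPM in the wild-type animals 1 to 4, against 13.5, 7.77 and 17.1 CPM in the knockouts 1 to 3. Wild-type 2 and 4 were high for Tfec and the rest overlapped. Atp6v0d2, a subunit of the lysosomal proton pump, measured 13.5, 51.5, 6.27 and 27.4 CPM in wild-type animals, against 1.67, 0.244 and 3.86 CPM in knockouts. All 3 knockout mice were below the 4 wild-type mice, with a log2 fold change of -3.67 (SE 0.95, edgeR adjusted p = 0.730). The membrane proteoglycan Sdc4 measured 270 ± 137 against 206 ± 21.3 CPM, and the lysosomal acid phosphatase Acp5 313 ± 149 against 354 ± 185 CPM.

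Cd9 (ENSMUSG00000030342, chromosome 6, 125460266 to 125494791, minus strand), a tetraspanin that organises proteins in the membrane, measured 161, 199, 132 and 171 CPM in the wild-type animals 1 to 4, against 151, 146 and 90.2 CPM in the knockouts 1 to 3. Knockout 3 was the lowest mouse, and the other knockout mice lay inside the wild-type range. The means were 166 ± 27.5 CPM (SD, n = 4) and 129 ± 33.6 CPM (SD, n = 3), with a log2 fold change of -0.36 (SE 0.22, edgeR adjusted p = 1.00). Of its 50-base words, 5.67% also occur in transcripts of 93 other genes, so part of its reads could be assigned elsewhere.

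Among 14 other tetraspanins and their partners, all were tested, 0 were called, 10 were positive and 4 negative, with a median of 0.08. Cd81, which pairs with Cd9 in membranes, measured 506, 236, 504 and 385 CPM in wild-type animals, against 557, 1129 and 879 CPM in knockouts. Cd82 measured 67.0 ± 3.99 CPM in wild-type animals, against 119 ± 39.2 CPM in knockouts. Both were higher in each knockout mouse than in each wild-type mouse and did not pass the test (edgeR adjusted p = 0.764 for Cd81 and 0.730 for Cd82). Cd53, a tetraspanin of leukocytes, measured 517 ± 96.7 against 537 ± 124 CPM.

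Lgals3 (ENSMUSG00000050335, chromosome 14, 47367751 to 47386160, plus strand), the galectin that binds damaged lysosomes and cell surface sugars, measured 1316, 2356, 1156 and 1960 CPM in wild-type mice 1 to 4. The knockout mice 1 to 3 measured 1557, 1057 and 968 CPM. Knockout 2 and 3 were below the 4 wild-type mice, and knockout 1 lay inside their range. On the log2 scale the difference was -0.51 (SE 0.30, adjusted p = 1.00 by edgeR), between means of 1697 ± 560 CPM (SD, n = 4) and 1194 ± 317 CPM (SD, n = 3).

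The other galectins and the galectin ligand Lgals3bp gave 6 tested of 8 genes, 0 calls, and 3 values in each direction. Lgals1 measured 834, 742, 675 and 1076 CPM in wild-type animals, against 835, 388 and 359 CPM in knockouts. Knockout 1 sat inside the wild-type range of Lgals1 while the other 2 knockout mice lay below it. Lgals3bp measured 647 ± 54.6 against 1018 ± 317 CPM, with a log2 fold change of 0.66 (SE 0.23, edgeR adjusted p = 0.823).

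Spp1 (ENSMUSG00000029304, chromosome 5, 104435118 to 104441050, plus strand) encodes osteopontin, a secreted ligand of integrins and CD44. It measured 2392, 881, 1555 and 1824 CPM in the wild-type animals 1 to 4, against 1410, 222 and 170 CPM in the knockouts 1 to 3. Knockout 2 and 3 were far below every wild-type mouse, and knockout 1 was inside the wild-type range. The means were 1663 ± 627 CPM (SD, n = 4) and 601 ± 702 CPM (SD, n = 3), with a log2 fold change of -1.47 (SE 0.72, edgeR adjusted p = 0.973). Without knockout 1 the log2 fold change was -3.10 and the adjusted p 0.0516, so that 1 mouse moved the value more than 1.5 times and Spp1 still missed the threshold. Exons of Spp1 share 309 bases with Gm42793, which had 1025 counts against 228457 for Spp1.

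The receptors of Spp1 and the enzymes that process it gave 10 tested of 12 genes and 0 calls, with 5 values in each direction. Cd44 measured 294 ± 35.5 CPM in wild-type animals, against 241 ± 36.3 CPM in knockouts, with a log2 fold change of -0.28. The integrin subunit Itgav measured 127 ± 42.6 against 128 ± 7.60 CPM. Its partner subunit Itgb1 was at 437 ± 60.9 against 389 ± 86.0 CPM, and Itgb5 was at 517 ± 140 against 694 ± 234 CPM. Itgb3 measured 4.20, 13.4, 5.87 and 14.8 CPM in wild-type animals, against 0.547, 1.02 and 5.96 CPM in knockouts. Its knockout 3 lay inside the wild-type range, and edgeR's adjusted p was 0.922.

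Cd36 (ENSMUSG00000002944, chromosome 5, 17781690 to 17888801, minus strand), the scavenger receptor that takes up fatty acids and oxidised lipoprotein, measured 22.1, 32.4, 17.4 and 35.9 CPM in wild-type mice 1 to 4. It measured 25.7, 19.2 and 14.5 CPM in the knockouts 1 to 3. The groups overlapped, with knockout 3 the lowest mouse. On the log2 scale the difference was -0.44 (SE 0.30, adjusted p = 1.00 by edgeR), between means of 26.9 ± 8.66 CPM (SD, n = 4) and 19.8 ± 5.61 CPM (SD, n = 3).

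Of 18 genes for scavenger receptors and fatty acid uptake, 17 were tested and 0 were called, with 7 positive and 10 negative values and a median of -0.12. Acsl1, which activates fatty acids by joining them to coenzyme A, measured 35.6, 38.5, 42.0 and 22.3 CPM in wild-type mice. In knockout mice 1 to 3 Acsl1 measured 29.9, 176 and 122 CPM, so that knockout 1 was at the wild-type level and the other 2 were above it. Its difference on the log2 scale was 1.66 (SE 0.49, adjusted p = 0.761 by edgeR), and without knockout 1 it passed the threshold with an adjusted p of 0.0407. That fit, of 4 against 2 mice, called 14 genes over the whole table, against 6 with all 7 mice. The lysosomal marker Cd68 measured 1193 ± 72.8 against 1202 ± 110 CPM, and the kinase Lyn 306 ± 40.4 against 412 ± 148 CPM.

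Lpl (ENSMUSG00000015568, chromosome 8, 68880491 to 68907448, plus strand), the lipase that splits triglyceride in lipoproteins, measured 34.6, 14.9, 15.9 and 29.7 CPM in the wild-type animals 1 to 4, against 48.4, 34.0 and 27.5 CPM in the knockouts 1 to 3. It was 1 of the 2 members with a positive value, and knockout 2 and 3 lay inside the wild-type range. The means were 23.8 ± 9.87 CPM (SD, n = 4) and 36.6 ± 10.7 CPM (SD, n = 3), with a log2 fold change of 0.63 (SE 0.34, edgeR adjusted p = 0.997). Without knockout 1 the value was 0.36.

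The genes that mature, bind or inhibit Lpl gave 10 tested of 15 genes and 0 calls, with 4 positive and 6 negative values and a median of -0.34. Angptl4, which inactivates the lipase and is a Pparg target, measured 15.0, 12.9, 9.89 and 22.8 CPM in wild-type animals, against 4.68, 7.36 and 4.15 CPM in knockouts. All 3 knockout mice were below the 4 wild-type mice, with a log2 fold change of -1.49 (SE 0.35, edgeR adjusted p = 0.657). The maturation factor Lmf1 measured 23.0 ± 2.72 against 24.7 ± 2.22 CPM, and its partner Sel1l 156 ± 22.2 against 125 ± 6.69 CPM. Lrp1, a receptor that takes up lipoprotein remnants, measured 899 ± 277 against 603 ± 125 CPM with overlapping groups.

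Fabp4 (ENSMUSG00000062515, chromosome 3, 10204088 to 10208576, minus strand), the fatty acid carrier of fat cells and macrophages, had 69, 156, 49 and 120 counts in the wild-type animals 1 to 4, against 108, 13 and 10 counts in the knockouts 1 to 3. This was 2.87, 6.02, 1.63 and 4.39 CPM against 3.69, 0.529 and 0.368 CPM. As for Spp1, knockout 1 was inside the wild-type range and knockout 2 and 3 were below it. On the log2 scale the difference was -1.28 (SE 0.83, adjusted p = 1.00 by edgeR), and without knockout 1 it was -3.07 (adjusted p = 0.157). The adipocyte markers summed to at most 0.488 CPM in any mouse, with Lep and Cidec at 0 throughout.

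Fabp5 (ENSMUSG00000027533, chromosome 3, 10012548 to 10016607, plus strand), the related carrier, measured 44.5, 185, 21.0 and 68.1 CPM in the wild-type animals 1 to 4, against 29.8, 22.0 and 25.8 CPM in the knockouts 1 to 3. Wild-type 2 was far above the other mice, and wild-type 3 was below all 3 knockout mice. On the log2 scale the difference was -1.62 (SE 0.63, adjusted p = 0.917 by edgeR), between means of 79.7 ± 73.0 CPM (SD, n = 4) and 25.9 ± 3.93 CPM (SD, n = 3). Without wild-type 2 it was -0.78, less than the full value by more than 1.5 times. Of its 50-base words, 5.48% also occur in transcripts of 5 other genes, among them Fabp5l2. The 8 other genes of the Fabp family did not pass the filter on low counts, and 5 of them had 0 counts in all libraries.

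Pparg (ENSMUSG00000000440, chromosome 6, 115360951 to 115490399, plus strand) measured 7.16, 4.63, 7.33 and 3.22 CPM in the wild-type animals 1 to 4, against 12.3, 13.2 and 8.53 CPM in the knockouts 1 to 3. Each knockout mouse was above each wild-type mouse, also under the other scalings tried. The means were 5.58 ± 2.00 CPM (SD, n = 4) and 11.3 ± 2.49 CPM (SD, n = 3), 203% of the wild-type mean, with a log2 fold change of 1.02 (SE 0.34, edgeR adjusted p = 0.805).

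The partners and relatives of Pparg gave 12 tested of 15 genes and 0 calls, with 9 positive and 3 negative values and a median of 0.06. Rxra, which pairs with Pparg on DNA, measured 40.1 ± 8.07 CPM in wild-type animals, against 46.8 ± 17.0 CPM in knockouts. Cebpa, a transcription factor that acts with Pparg in fat cells, measured 65.1, 92.0, 78.8 and 87.8 CPM in wild-type animals, against 95.8, 216 and 134 CPM in knockouts. Its groups did not overlap, and its difference on the log2 scale was 0.88 (SE 0.26, adjusted p = 0.776 by edgeR). Cebpb measured 836 ± 314 against 657 ± 140 CPM. Stat6, which transmits interleukin-4 signals, measured 295 ± 42.0 against 270 ± 77.4 CPM.

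The Pparg targets outside the 10 genes gave 12 tested of 16 and 0 calls, with 5 positive and 7 negative values and a median of -0.28. Plin2, the coat protein of lipid droplets, measured 582, 718, 489 and 630 CPM in wild-type animals, against 490, 345 and 259 CPM in knockouts. Knockout 1 and wild-type 3 were level for Plin2 and the other knockout mice lay below, with edgeR's adjusted p at 0.812. Klf4, a transcription factor, measured 203 ± 78.2 against 218 ± 68.2 CPM. Angptl4 and Acsl1, both given above, are also in this list and had opposite signs.

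**Figure D3:**
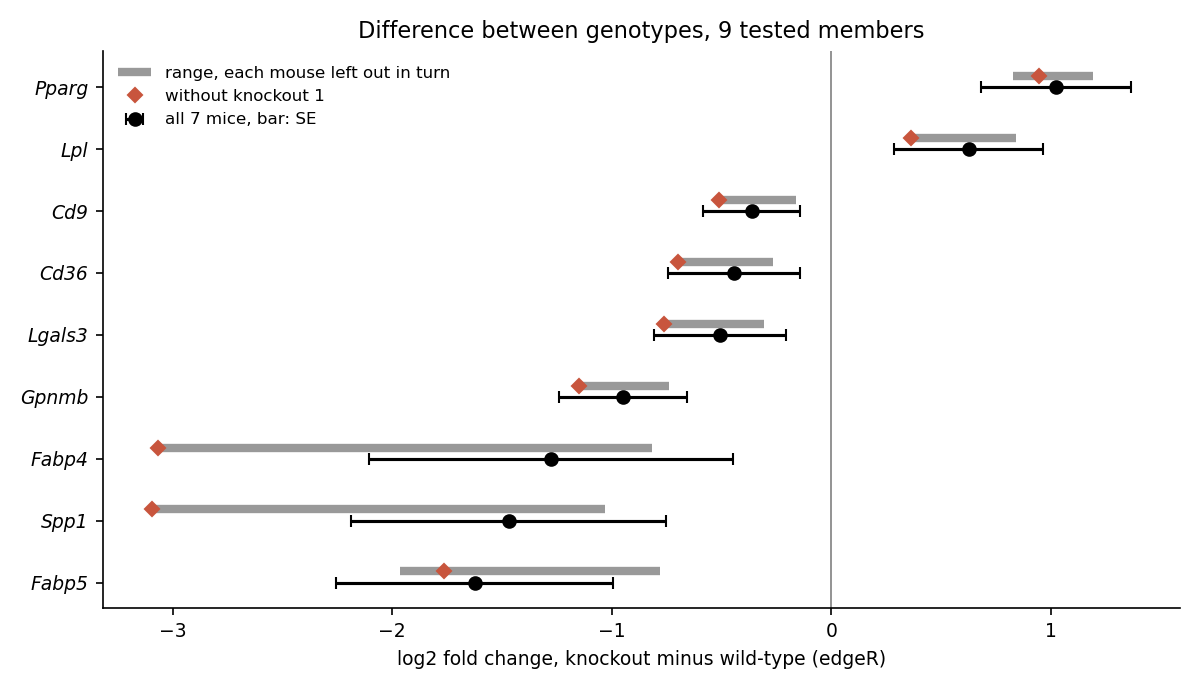
Log2 fold change (knockout minus wild-type, edgeR) of the 9 tested members: the black point is the value with all 7 mice with its SE, the grey band the range with each mouse left out in turn, and the red diamond the value without knockout 1. Pparg and Lpl are above 0, the other 7 are below 0, and Spp1 and Fabp4 move to -3.10 and -3.07 without knockout 1.

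With each mouse left out in turn, the log2 value ranged from -0.51 to -0.16 for Cd9, from -0.70 to -0.26 for Cd36 and from -0.76 to -0.31 for Lgals3. The range was wider for Fabp4, from -3.07 to -0.82, and for Spp1, from -3.10 to -1.03. No member changed sign when a mouse was left out.

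Other genes often found with this state gave 20 tested of 20 and 0 calls, with 12 positive and 8 negative values and a median of 0.14. Apoe, the apolipoprotein that Trem2 binds and macrophages secrete, measured 19693, 12272, 15813 and 9872 CPM in the wild-type animals 1 to 4, against 18178, 74339 and 32725 CPM in the knockouts 1 to 3. Knockout 2 and 3 were above all wild-type mice and knockout 1 lay among them, with a log2 fold change of 1.53 (SE 0.46, edgeR adjusted p = 0.764). The lysosomal protease Ctsz measured 1931 ± 417 against 2329 ± 152 CPM. Over all lists, which hold 145 different genes with 115 tested, 0 were called, 9 passed an unadjusted edgeR p of 0.05 as higher and 11 as lower, and the smallest adjusted p was 0.657. This was 7.83% and 9.57% of the tested list genes, against 2.57% and 2.79% of all tested genes, for lists chosen with earlier results of these data known.

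Levels between genes were compared as CPM per kb of exon, which allows for length. In wild-type mice the order was Spp1 (1009 CPM per kb), Lgals3 (913), Cd9 (81.1), Fabp5 (22.4), Gpnmb (7.84), Cd36 (7.51), Lpl (2.27), Pparg (1.89) and Fabp4 (0.830). Spp1 and Lgals3 overlapped in range, as did Fabp5 with Gpnmb, Gpnmb with Cd36, Lpl with Pparg and Pparg with Fabp4, whereas Lgals3 and Cd9, Cd9 and Fabp5, and Cd36 and Lpl were separate. In knockout mice Lgals3 led with 643 CPM per kb, followed by Spp1 with 364, and Fabp4 was again the lowest with 0.341. Pparg (3.84) there stood beside Gpnmb (4.06) and Lpl (3.50), with overlapping ranges. Spp1 and Lgals3 together made up 83.0% to 92.2% of the members' counts.

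The members' counts were 0.316% to 0.438% of all counts in wild-type mice, 0.365% in knockout 1, and 0.124% and 0.128% in knockout 2 and 3. Within a genotype, Fabp4, Spp1 and Fabp5 varied most, with an SD of 1.02 to 1.22 in log2 CPM, at percentiles 88.4, 87.2 and 84.3 of all tested genes. Cd9 varied least, with 0.32 at percentile 37.1. Wild-type 2 was the highest mouse for 5 of the 9 members and knockout 3 the lowest for 6.

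Across the 7 libraries, likeness was taken as the mean absolute difference of log2 CPM after each gene was centred on its own mean. Among 36 pairs of members the closest were Cd36 with Lgals3 (0.13) and Cd9 with Cd36 (0.19), and the farthest were Spp1 with Pparg (1.53). The genes most like Gpnmb among 8422 candidates were Ccr2, Plin2, Deptor, Snx2 and Rps27l, with differences of 0.13 to 0.22 against a median of 0.55. Those most like Pparg were Tagap, Tlr3, B4galt4, Syt11 and Apobec1, with 0.18 to 0.24 against a median of 0.58. These likenesses include the genotype difference and share the same 7 libraries.

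**Figure D4:**
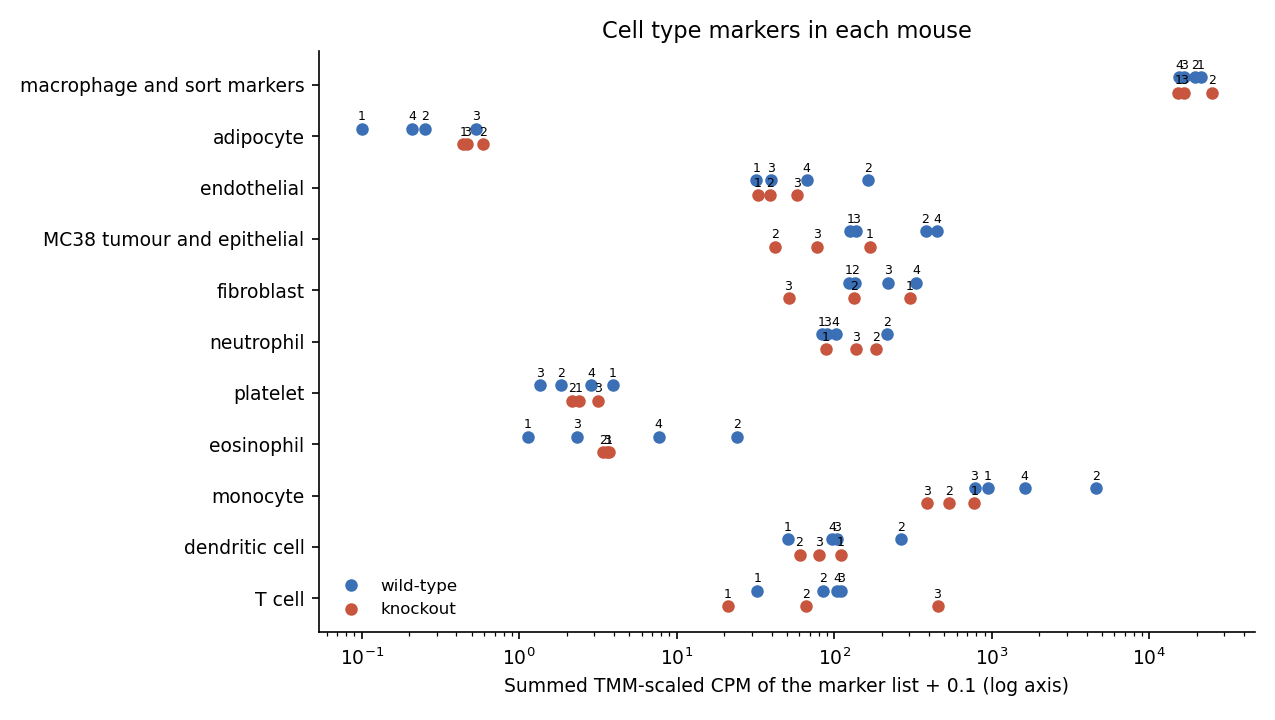
Summed TMM-scaled CPM (plus 0.1, log axis) of each list of cell type markers in wild-type mice (blue) and knockout mice (red), numbered by mouse. Macrophage and sort markers lie between 15257 and 25088 CPM in all mice, adipocyte markers are below 0.5 CPM, and wild-type 2 has the highest monocyte sum at 4576 CPM.

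Markers of other cells moved with some of these values. The 8 monocyte markers, all with counts, summed to 946, 4576, 777 and 1620 CPM in the wild-type animals 1 to 4, against 776, 536 and 388 CPM in the knockouts 1 to 3. Wild-type 2, the highest mouse for Gpnmb, Cd9, Fabp4, Fabp5 and Lgals3, was also highest here, with 3241 of its 4576 CPM from Chil3 alone. Other monocyte markers ranked the mice differently: the chemokine receptor Ccr2 was highest in wild-type 1 and lower in each knockout mouse (727 ± 125 against 404 ± 99.7 CPM), Vcan was highest in wild-type 4 and Plac8 in knockout 1.

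Neutrophil markers summed to 83.6 to 215 CPM in wild-type and 88.0 to 184 CPM in knockout mice with Ly6g at 0. Csf3r carried most of the sum in every mouse but wild-type 2, with 181 CPM in knockout 2 and 133 CPM in knockout 3. In wild-type 2 Csf3r gave 100 of the 215 CPM and Retnlg 48.6 CPM. The other neutrophil markers with counts had lower means in knockout mice. Retnlg was at 15.7 ± 22.3 against 0.224 ± 0.290 CPM with no overlap between the groups, S100a8 at 7.86 ± 6.11 against 2.31 ± 3.62 CPM, and Mmp8 between 1.75 and 21.2 CPM against 1.32 to 3.21 CPM. Endothelial markers, listed because endothelium also expresses Cd36, Fabp4 and Lpl-binding Gpihbp1, summed to 31.9 to 165 CPM and 32.7 to 58.3 CPM, with Cldn5 at 0. Pecam1 gave 163 of the 165 CPM in wild-type 2, where Kdr was at 0.965 CPM, its lowest, and Tek and Emcn were at 0.

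Fibroblast markers summed to 124 to 333 CPM in wild-type and 51.2 to 302 CPM in knockout mice, mostly from Col3a1. Markers listed for epithelial tumour cells summed to 126 to 451 CPM and 42.1 to 168 CPM, mostly from Cdh1. Epcam measured only 1.61 to 5.30 CPM over all mice. Krt8, Krt18, Krt19 and Cldn4 were highest in wild-type 4, at 2.81, 4.42, 0.731 and 0.768 CPM. In the other mice these 4 genes were at most 0.915 CPM. Dendritic cell markers summed to 50.5 to 264 and 60.2 to 110 CPM, with 170 of the 264 CPM in wild-type 2 from Ccr7. These markers differed in direction. Xcr1 (6.24 ± 1.91 against 16.7 ± 5.23 CPM) and, by a narrow margin, Clec9a were higher in each knockout mouse than in each wild-type mouse. Siglech also had a higher mean in knockout mice, and Flt3, Zbtb46, Cd209a, Ccr7 and Fscn1 had lower means. Eosinophil markers summed to 1.04 to 24.0 and 3.30 to 3.62 CPM with Ear1 at 0, and platelet markers to at most 3.83 CPM. Knockout 1 was the highest knockout mouse for Spp1 and Fabp4. Among the 3 knockout mice it had the highest sum for fibroblast, epithelial, monocyte, dendritic cell and eosinophil markers. Its sum was the lowest for macrophage, endothelial, neutrophil and T cell markers. The low neutrophil sum came mostly from Csf3r (65.7 CPM), and Retnlg and Ltf were also lowest there. In contrast, S100a8, S100a9, Cxcr2 and Mmp8 were highest in knockout 1 among knockout mice. The low endothelial sum came from Pecam1 (17.0 against 31.1 and 50.8 CPM), whereas Cdh5 and Kdr were highest in knockout 1. The epithelial sum of knockout 1 was nearly all Cdh1 (167 of 168 CPM), while Epcam, at 1.61 CPM, was lowest there of all mice. Its eosinophil sum of 3.62 CPM was close to 3.30 and 3.53 CPM in knockout 2 and 3. Its fibroblast sum was mostly Col3a1 (240 of 302 CPM). Dcn, Lum, Pdgfra and Pdgfrb were also highest there among knockout mice, while Col1a1 (0 CPM) and Thy1 were lowest. Of the monocyte markers, Ccr2, Plac8, Vcan, Chil3, F10 and Hp were highest in knockout 1 among knockout mice. Ly6c2 was lowest there (32.3 against 63.1 and 34.5 CPM). Among knockout mice, Flt3, Zbtb46, Cd209a, Siglech and Fscn1 were highest in knockout 1, and Xcr1 and Clec9a were lowest there. T cell markers summed to 32.4 to 110 and 21.0 to 453 CPM, the last in knockout 3. The part of these cells in the members' values was not tested.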

How the data were processed

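Macrophage RNA of 7 mice was measured by polyA RNA-seq with a SMART-seq kit, per the labels' protocols. The authors deposited whole-number read counts per gene without normalization. BWA 0.7.12, DESeq2 1.24.0, cutadapt 1.15 and FastQC 0.11.5 are named, without a role, per the submitters' processing notes, with GRCm38 as build. The program that assigned reads to genes and its use of strand are not given in the sources used here.

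Genes were named from the GENCODE M21 annotation of GRCm38, which matched 53274 of 53379 identifiers (99.8%). The whole table was fitted with edgeR 4.0.16 in R 4.3.3 by the quasi-likelihood test with TMM factors, the tool's own low-count filter, genotype as the only term and Benjamini-Hochberg adjustment over 16234 genes. CPM came from the deposited counts with TMM factors; for log2 CPM a prior count of 2 was added. Alternatives were DESeq2 1.42.0, limma 3.58.1 voom with library weights, other scalings and filters, the mouse number as a block, an adjusted p of 0.1, and each mouse left out.

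The members and lists were chosen with earlier results of these data known. Named pathway genes are, in each list, those past the threshold or else the 2 highest per kb and the 1 with the smallest p, plus Tyrobp, Rxra, Angptl4, Lmf1, Tfec, Mitf, Cd44 and Itgav. Genes most like a member are the 5 nearest tested protein-coding genes with a mean log2 CPM of at least 3. On simulated counts for the 16234 genes, 14 of 100 2-fold and 64 of 100 4-fold differences were found, with 5 false calls among 83. The common biological coefficient of variation between mice was 42.9%.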

Additional observations from a re-analysis of the deposited data

Results flagged for a closer look

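Of 53 sets of wild-type values examined, 2 held a mouse far from the others, and chance gives about 1 in 20 such sets. The groups of 3 knockout mice were not examined. Acp5 measured 535 CPM in wild-type 2 against 220 to 252 CPM in the other wild-type mice, a gap of 0.900 of the whole range. The neutrophil markers summed to 215 CPM in wild-type 2 against 83.6 to 102 CPM in the other wild-type mice, a gap of 0.860 of the range.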

How the results depend on the processing

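The 9 tested members kept the sign of their log2 fold change in all 144 values under 16 alternatives, and none passed an adjusted p of 0.05 in any. Their median ranged from -0.76 to -0.34 with each mouse left out. The count of genes called over the table was 6. It was 11 without the filter on low counts, 129 with DESeq2, 10 with limma voom and 1 with the replicate block, and 3 to 14 with each mouse left out. The labels number the mice within each genotype and name no pairs. Deviations of equal-numbered mice from their group means correlated at 0.0656, 0.0509 and 0.0882 across genes. Mice of unequal number were not compared, so these values cannot decide whether the numbers pair the mice. Members with an unadjusted edgeR p under 0.05 numbered 3, and 1 to 5 with each mouse left out. Members whose groups did not overlap numbered 2. There was 1 with upper quartile scaling and 1 with library size alone, where Gpnmb overlapped, and 2 to 5 with each mouse left out. The 5 without knockout 1 were Gpnmb, Spp1, Fabp4, Lgals3 and Pparg. The groups of 4 and 2 mice left without knockout 1 did not overlap for 10.1% of all tested genes as higher and 9.66% as lower. Fabp4 rests on 10 to 156 counts per library.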
